A study of Mus musculus with 6 samples.

Results

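Dendritic cells take up dying cells and show parts of them to T cells. The 9 genes described here encode receptors and bridging proteins for that uptake: Axl, Mertk and Tyro3, the TAM family of receptor tyrosine kinases, their ligands Gas6 and Pros1, and the further uptake genes Cd36, Timd4, Mfge8 and Lrp1. They were grouped by their function in uptake, and all 9 were found among the 32903 gene symbols of the deposited table. RNA came from MuTuDC1940, an immortalised mouse line that resembles cDC1 (type 1 conventional dendritic cells), the subset that presents engulfed antigen on MHC class I. The study compared untreated cells with cells given poly(I:C), a synthetic double-stranded RNA, at 5 µg/ml for 18 hours, to find genes that rise. It has 3 samples per group, of which 2 libraries per group are used here, called by their column headings NT01 and NT02 (untreated) and PolyIC01 and PolyIC02 (treated). All libraries come from 1 cell line, and no label states whether a group's samples were grown as separate cultures, so the p-values rest on a spread between libraries that may be purely technical.

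Apoptotic cells turn phosphatidylserine, a lipid normally kept on the inner side of the plasma membrane, to the outside. TIM-4 (the product of Timd4) binds this lipid directly, while TAM receptors and integrins reach it through bridging proteins: GAS6 and protein S for the TAM receptors, and MFG-E8 for the integrins. TAM receptors are also known as brakes on Toll-like receptor and interferon signalling. CD36 and LRP1 are scavenger receptors with many other ligands, lipids and lipoproteins among them.

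Values are TPM, the estimated abundance of a transcript corrected for its length and scaled to a total of 1000000 per library, so levels of different genes can be set side by side. Since TPM does not carry the number of reads, the depth behind each value is unknown, and a value of 0 is read only as listed at 0. A gene was tested where its mean over the 4 libraries was at least 0.5 TPM (12520 genes). Differences between the groups (log2 differences, or log2 fold changes) are poly(I:C) minus untreated in log2(TPM + 1), which understates the change of low genes. The words rose and fell are used for an adjusted p under 0.05 in limma, with Benjamini-Hochberg adjustment over all tested genes. Means are given ± SD with n = 2 libraries per group.

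All 12 cDC1 markers in the marker list reached the 0.5 TPM limit, and their summed level ran from 5774 to 5919 TPM across the 4 libraries, most of it from Irf8, Naaa and Id2. Of these markers 5 rose and 3 fell. Beside this and the marker counts below, 28.4% of all tested genes rose and 32.4% fell. The cDC1 rises were Xcr1 (log2 difference 0.78), Zbtb46 (0.35), Clec9a (0.23), Cadm1 (0.11) and Irf8 (0.07). The falls were Tlr3 (-0.81), Flt3 (-0.74) and Batf3 (-0.30). Of 13 macrophage and monocyte markers, 7 reached the limit, of which 4 rose and 1 fell. Their summed level was 526 to 530 TPM untreated and 552 to 570 TPM treated, most of it from Cd68 and Lyz2. Among the rises, Fcgr1 was at 0.356 and 0.299 TPM untreated and 4.76 and 4.66 TPM treated, so it reached the limit only through its treated values. Vsig4 and Marco were listed at 0 in all 4 libraries, and Cd163, Mrc1, Csf1r and Ly6c2 stayed under the limit. Plasmacytoid dendritic cell markers summed to 200 and 202 TPM untreated and 1303 and 1277 TPM treated, mostly from Bst2, an interferon-induced gene, while Siglech and Ccr9 were under the limit. In that list of 6 markers 2 rose and 1 fell. Of the rises, Pacsin1 reached the limit only through its treated values (0.402 and 0.318 TPM untreated, 3.90 and 4.02 TPM treated). The 7 cDC2 markers summed to 7.76 and 7.87 TPM untreated and 38.8 and 38.0 TPM treated, mostly from Cd4, with 2 rises and with Cd209a and Clec4a4 listed at 0. Sirpa, among these rises, also reached the limit only through its treated values. Stromal and epithelial markers, of which 2 fell, summed to 10.5 and 11.7 TPM untreated and 7.90 and 7.87 TPM treated. The B cell list summed to at most 7.05 TPM in any library, the T cell list to at most 2.32 TPM and the neutrophil list to at most 0.127 TPM. The part of these markers in the results below was not tested.

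Of the 9 uptake genes, 6 could be tested. Axl, Timd4 and Mfge8 rose, Cd36 and Tyro3 fell, and Lrp1 did not pass. Of all tested genes 28.4% rose and 32.4% fell, so 3 rises and 2 falls among 6 genes are read against a background in which 60.8% of genes changed. The median log2 difference of the 6 genes was 0.34, beside -0.02 over all tested genes. Values of the groups did not overlap for all 6, as for 81.3% of all tested genes. Size separates the members more than the call does: Axl and Timd4 rose 2-fold or more in TPM + 1, as 5.69% of tested genes did, while no member fell that far, as 2.76% did. Mertk, Gas6 and Pros1 lay under the limit in the mean of the 4 libraries and were not tested.

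**Figure D1:**
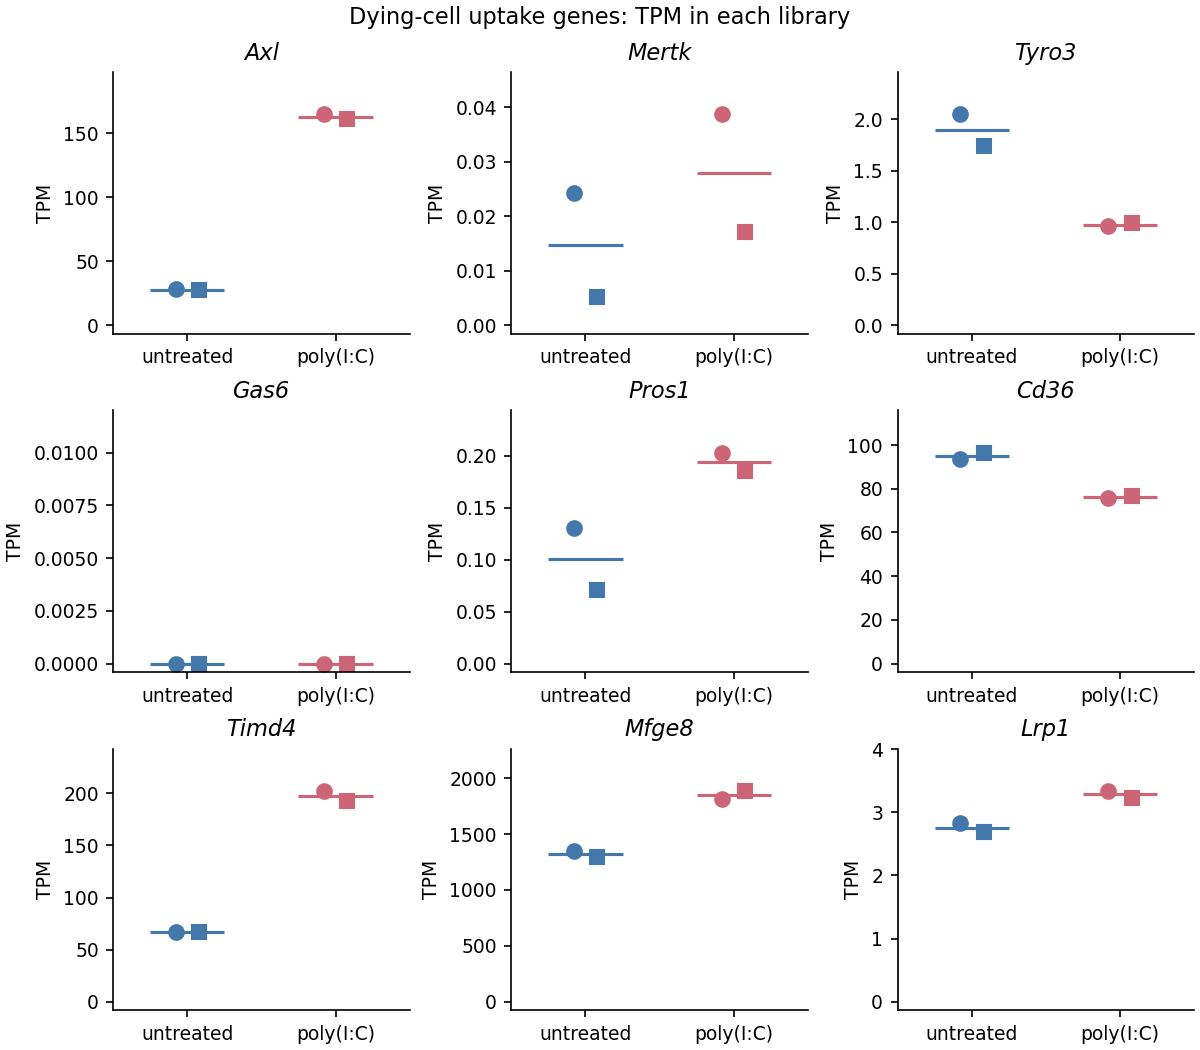
TPM of each of the 9 genes (vertical axes, each with its own scale from 0) in the 2 untreated libraries (blue) and the 2 poly(I:C) libraries (red). Circles are NT01 and PolyIC01, squares NT02 and PolyIC02, and lines are group means. Axl, Timd4 and Mfge8 lie higher with poly(I:C), Tyro3 and Cd36 lower, and Mertk, Gas6 and Pros1 stay under 0.25 TPM.

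Axl is the TAM receptor that GAS6 engages and protein S does not. It was at 28.3 and 27.4 TPM in NT01 and NT02 and at 165 and 161 TPM in PolyIC01 and PolyIC02. Both treated libraries lay far above both untreated ones, with little spread inside either group. The mean went from 27.9 ± 0.607 to 163 ± 2.75 TPM, 5.85-fold, and limma put the log2 difference at 2.51 (SE 0.035, adjusted p = 7.69e-07). This was the 109th largest rise among the 3556 genes that rose. By level, Axl moved from rank 4870 and 4851 of the symbols in the untreated libraries to rank 965 and 985 in the treated ones.

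Tyro3, the TAM receptor best known from the nervous system, went the other way. It was low, at 2.05 and 1.73 TPM untreated and 0.959 and 0.990 TPM treated. The treated values were both under the untreated ones and closer to each other. The mean fell from 1.89 ± 0.220 to 0.975 ± 0.0221 TPM, 1.94-fold lower, and limma gave a log2 difference of -0.55 (SE 0.10, adjusted p = 0.00504). Because Tyro3 lies near the added 1 TPM, its log2 difference depends on that constant and was -0.88 with 0.1 TPM added.

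Mertk, the TAM receptor most associated with macrophage clearance of apoptotic cells, was close to 0 throughout. It was at 0.0243 and 0.00527 TPM untreated and 0.0387 and 0.0171 TPM treated, and the groups overlapped. No fold is read from values this low. Thus Axl supplied nearly all TAM receptor transcripts, 93.2% and 94.0% of the summed TPM of Axl, Tyro3 and Mertk in the untreated libraries and 99.4% in both treated ones. The ratio of Axl to Tyro3 was 13.8 and 15.8 untreated and 172 and 163 treated.

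Transcripts of the TAM ligands were scarce. Gas6, the ligand of all TAM receptors, was listed at 0 in every library used. Pros1 encodes protein S, an anticoagulant that also binds Tyro3 and Mertk, and was at 0.131 and 0.0712 TPM untreated and 0.203 and 0.185 TPM treated. The Pros1 values did not overlap between the groups, but all are under 0.25 TPM. With no lower limit on expression, Pros1 had a log2 difference of 0.12 and an adjusted p of 0.138 in limma.

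Timd4 encodes a phosphatidylserine receptor familiar from tissue-resident macrophages. It was at 66.5 TPM in both untreated libraries and at 202 and 193 TPM in PolyIC01 and PolyIC02. Both treated libraries lay well above both untreated ones. The mean rose 2.97-fold, from 66.5 ± 0.0291 to 197 ± 6.96 TPM. The log2 difference in limma was 1.56 (SE 0.034, adjusted p = 2.62e-06). Among the macrophage markers, the complement gene C1qa rose too, from 37.2 and 36.8 to 168 and 174 TPM, and Lyz2 fell from 218 and 217 to 98.9 and 107 TPM. In bulk RNA a change in the number of cells of a kind and a change in RNA per cell cannot be told apart.

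Cd36, the fatty acid and scavenger receptor, was the highest receptor among the members in untreated cells, at 93.6 and 96.5 TPM, and was at 75.5 and 76.5 TPM with poly(I:C). The groups did not overlap, although the difference was small. The mean fell from 95.1 ± 2.08 to 76.0 ± 0.692 TPM, 1.25-fold lower, a log2 difference in limma of -0.32 (SE 0.032, adjusted p = 0.000497). Lrp1, the large endocytic receptor also known as CD91, was low, at 2.82 and 2.69 TPM untreated and 3.34 and 3.23 TPM treated. Its log2 difference of 0.19 (95% interval -0.02 to 0.40, adjusted p = 0.101 in limma) did not pass, and it passed only in limma without trend or robust moderation (adjusted p = 0.0263). Under quantile normalization its log2 difference was 0.09.

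**Figure D2:**
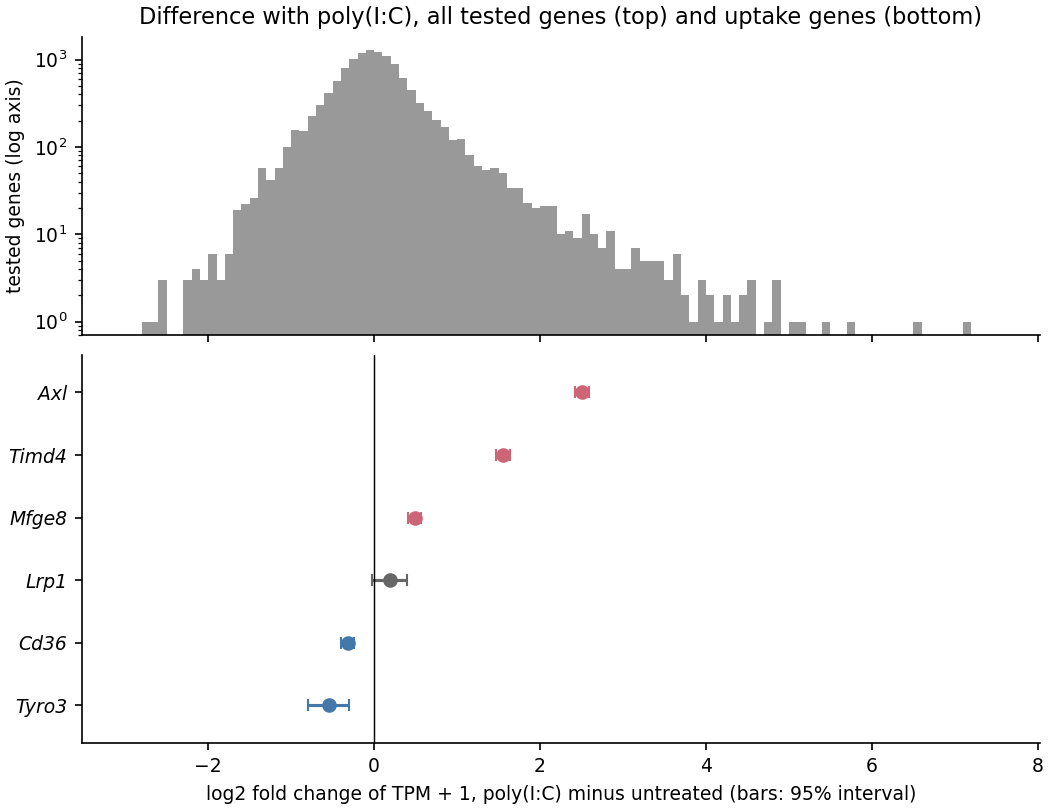
Log2 fold change of TPM + 1, poly(I:C) minus untreated. Top, number of tested genes per bin of 0.1 on a log axis. Bottom, the 6 tested uptake genes with 95% intervals from limma (red rose, blue fell, grey did not pass). Axl at 2.51 and Timd4 at 1.56 lie in the right tail of all genes, and the interval of Lrp1 spans 0.

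The make-up of the receptor transcripts therefore differed between the groups. The summed TPM of the 6 receptor genes (Axl, Tyro3, Mertk, Cd36, Timd4 and Lrp1) was 193 and 195 untreated and 447 and 434 treated. Cd36 held 48.4% and 49.5% of that sum in the untreated libraries and 16.9% and 17.6% in the treated ones. Axl went from 14.6% and 14.1% to 36.9% and 37.1%, and Timd4 from 34.4% and 34.1% to 45.3% and 44.3%. The order of levels was Mfge8, Cd36, Timd4, Axl, Lrp1, Tyro3, Pros1, Mertk, Gas6 without poly(I:C). With poly(I:C) Timd4 and Axl stood above Cd36 and the rest of the order was as before. In each group, both libraries of a gene lay above both libraries of the next gene in that order.

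**Figure D3:**
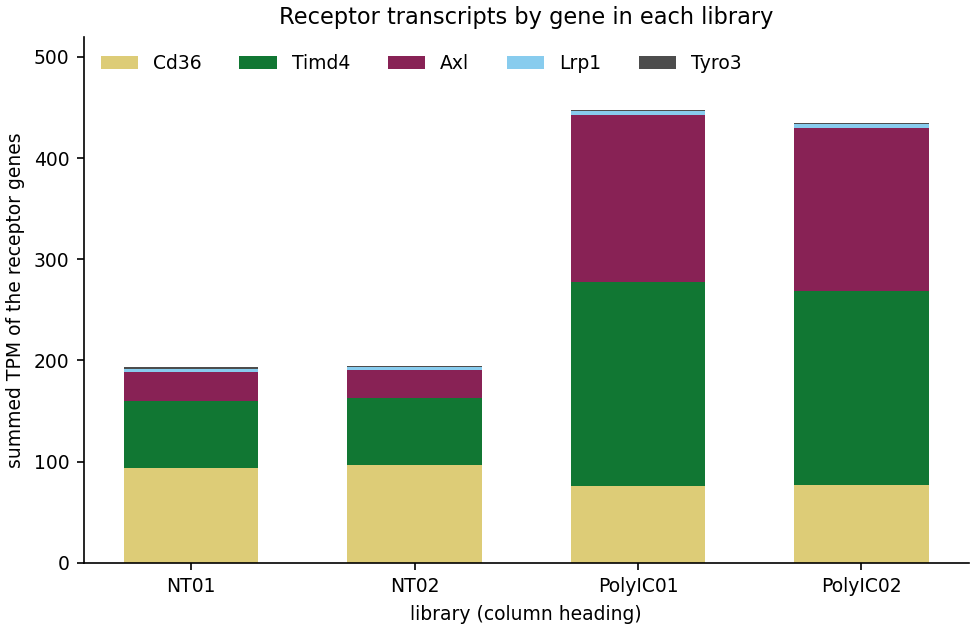
Summed TPM of the receptor genes in each library (bars start at 0), divided by gene. Mertk is left out because it would not be visible. The total is 193 and 195 TPM untreated and 447 and 434 TPM treated, with taller Timd4 and Axl segments and a shorter Cd36 segment.

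Mfge8 encodes a secreted protein that links phosphatidylserine to integrins. It was by far the most abundant of the 9 genes, at 1346 and 1296 TPM untreated and 1816 and 1888 TPM treated. The treated libraries lay above the untreated ones, by a smaller fold than for Axl or Timd4. The mean rose 1.40-fold, from 1321 ± 35.9 to 1852 ± 50.5 TPM, which is a log2 difference of 0.49 in limma (SE 0.031, adjusted p = 7.78e-05). Mfge8 ranked 90 and 97 among all symbols by level in the untreated libraries and 47 and 45 in the treated ones. It made up 86.9% to 87.4% of the summed TPM of the 9 genes without and 80.2% to 81.3% with poly(I:C).

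Mfge8 has a long and a short curated transcript, which differ by 1 exon. In the annotation of the long form (GENCODE M21, GRCm38) this is exon 4 of 10, at chr7:79143278-79143388 on the minus strand, 111 bases that lie wholly in the coding sequence and keep the reading frame. It is shown because the exon alone separates the forms, in capitals with 15 bases of the neighbouring exons on each side in lower case.
Mfge8 exon 4: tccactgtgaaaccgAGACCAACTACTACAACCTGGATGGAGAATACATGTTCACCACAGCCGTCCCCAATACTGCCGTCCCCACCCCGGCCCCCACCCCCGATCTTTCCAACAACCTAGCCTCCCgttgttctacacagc
The long form was at 1121 and 1084 TPM untreated and 1496 and 1543 TPM treated, and the short form at 225 and 211 TPM untreated and 320 and 344 TPM treated. The long form held 83.3% and 83.7% of the Mfge8 TPM without and 82.4% and 81.8% with poly(I:C). Both forms were higher with poly(I:C), and the long form remained the major one in every library. The split between transcripts is an estimate of the authors' quantification and was not tested.

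Gas6 and Lrp1 each have 1 RefSeq transcript in the table. The remaining members are divided over several, and for Axl that division bears on the result. The 3 curated Axl transcripts held 0.44% to 1.84% of the Axl TPM, and the rest lay on 4 predicted transcripts. The predicted transcripts summed to 27.8 and 27.3 TPM untreated and 162 and 158 TPM treated, and the curated ones to 0.521 and 0.120 TPM untreated and 2.82 and 2.90 TPM treated. Both kinds were higher with poly(I:C), but with curated transcripts alone the log2 difference of Axl was 1.56 (adjusted p = 0.00177 in limma), with untreated values under the added 1 TPM. Timd4 was split evenly, with its curated transcript at 49.9% to 51.9% of the gene, 33.2 TPM in both untreated libraries and 103 and 99.9 TPM in the treated ones. For Cd36 the 6 predicted transcripts held 95.6% to 96.5%, and for Tyro3 the curated ones held 22.9% to 27.9%.

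**Figure D4:**
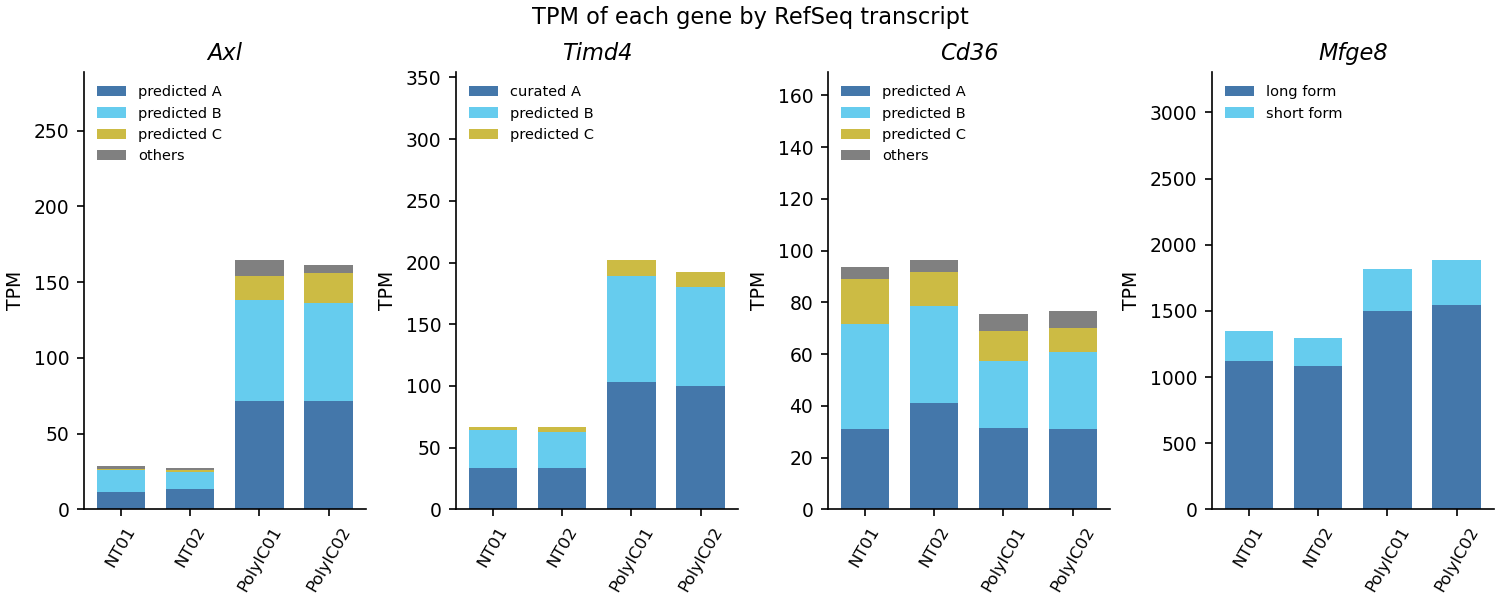
TPM of Axl, Timd4, Cd36 and Mfge8 in each library (bars start at 0), divided by RefSeq transcript, with the 3 most abundant lettered in order and the remainder in grey. The transcripts of Axl and Timd4 are taller together with poly(I:C), and the long form makes up over 81% of Mfge8 in every library.

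On GRCm38 (RefSeq annotation) the genes lie apart from each other. Axl is at chr7:25756500-25788924 and Mfge8 at chr7:79133768-79149060, Mertk at chr2:128698915-128803162 and Tyro3 at chr2:119797740-119818104. Gas6 is at chr8:13465374-13494535, Pros1 at chr16:62854307-62929346, Cd36 at chr5:17781690-17888959, Timd4 at chr11:46810786-46844333 and Lrp1 at chr10:127538157-127621148. In GENCODE M21 the members with tested changes overlap no other gene. Mertk, Gas6 and Lrp1 each overlap a gene on the opposite strand, and Mertk also overlaps Gm23172 on its own strand. The strand setting of the authors' quantification is not given here, so reads of the partners cannot be told apart.

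The 250 bases before 1 listed start site of each gene (RefSeq, GRCm38.p6) were searched on both strands for letter patterns. These were patterns of factors active after poly(I:C) and, apart from them, the GC box. The patterns were GAAA and GAAA with 2 free bases between (interferon-stimulated response element, ISRE), TTCNNNGAA (GAS, the gamma-activated site), GGG and CC with 5 free bases between (NF-kB), TGANTCA (AP-1) and GGGCGG (GC box, whose letters can overlap an NF-kB match). No window held the ISRE or AP-1 letters, which 2.98% and 6.75% of all 32851 promoter windows do. The GAS letters, in 7.02% of all windows, were found before Pros1 and Lrp1, the NF-kB letters in 7 of 9 windows (45.8% of all) and the GC box in 8 of 9 (32.7% of all). The windows of Tyro3 and Cd36 lie inside the genes, whose longest transcripts start farther upstream, and 191 of the 250 bases of the Axl window lie inside the span of its transcripts.

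The window of Timd4 was the only one with none of these patterns. After its sequence had been read, a further pattern was added, GGAA and GAAA with 2 free bases between, the composite element at which an ETS factor such as PU.1 and an IRF factor such as IRF8 or IRF4 bind together. It can overlap an ISRE match, and was found in the Timd4 window, 72 bases before the start, in no other member, and in 2.3% of all windows. The Timd4 and Mfge8 windows are shown because these genes rose and their windows carry different letters. Capitals mark the composite element in Timd4, at chr11:46810549-46810785 on the plus strand (the part of the window outside the RefSeq gene span), and the NF-kB and GC box letters in Mfge8, at chr7:79149061-79149310 on the minus strand.
Timd4 upstream: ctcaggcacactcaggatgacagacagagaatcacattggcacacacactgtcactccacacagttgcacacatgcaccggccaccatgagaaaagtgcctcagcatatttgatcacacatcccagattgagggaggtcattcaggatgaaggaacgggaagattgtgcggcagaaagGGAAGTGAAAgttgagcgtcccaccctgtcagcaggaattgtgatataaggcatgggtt
Mfge8 upstream: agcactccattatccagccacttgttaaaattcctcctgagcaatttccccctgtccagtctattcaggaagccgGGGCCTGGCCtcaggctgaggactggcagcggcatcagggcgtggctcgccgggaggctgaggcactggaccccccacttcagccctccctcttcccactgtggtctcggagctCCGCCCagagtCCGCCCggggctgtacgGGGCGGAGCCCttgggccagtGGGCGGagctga
The Mfge8 window is the richer in G and C, at 65.2% against 50% for Timd4 and a median of 52.4% over all windows. A match is a string of letters, and no binding was measured.

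For each gene that rose or fell, the 3 genes nearest to it in pattern were found among genes averaging 10 TPM or more, by the Euclidean distance over the 4 libraries of log2(TPM + 1) minus the untreated mean. Nearest to Axl was Btg1, an antiproliferative gene, at 36.3 and 35.9 TPM untreated and 213 and 206 TPM treated (distance 0.021), followed by E230013L22Rik and the interferon-inducible gene Ifi211. Nearest to Timd4 was Cd83, a maturation marker of dendritic cells, at 97.7 and 95.5 TPM untreated and 293 and 279 TPM treated (distance 0.022), followed by Serpinb9 and Parp12. Mfge8 was nearest to Qpctl, Hook2 and Lipe, Cd36 to Strap, Cox8a and Eif2b5, and Tyro3 to Kmt5c, Selenom and Ccdc34. With 4 libraries in 2 groups, these distances mostly compare the size of 1 difference.

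Genes around the members in the same pathway were read from 9 lists with 99 genes, of which 74 were tested. In all, 31 genes rose and 24 fell, 19 missed the threshold, and the median log2 difference was 0.10. The shares, 41.9% and 32.4%, stand beside 28.4% and 32.4% over all tested genes. The rises include Sirpa and Nr1h3, which reached the expression limit only through their treated values. With curated transcripts alone, 24 listed genes rose and 20 fell. Both counts were also lower than in the main fit whichever library was left out.

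The proteins that mature the TAM ligands and cut TAM receptors from the surface had 2 rises and 4 falls among 6 tested genes, with a median of -0.29. The falls include the vitamin K cycle, which both TAM ligands need for activity. Vkorc1, the vitamin K epoxide reductase, fell from 31.8 ± 0.501 to 13.9 ± 0.474 TPM (log2 difference -1.13, adjusted p = 2.41e-05 in limma). Its relative Vkorc1l1 fell by 0.34 and Ggcx, the carboxylase that modifies GAS6 and protein S, by 0.51 on the log2 scale (adjusted p = 0.00185 and 0.0143 in limma). Vkorc1l1 and Ggcx were named after their values were seen, and Ggcx did not pass with curated transcripts alone (adjusted p = 0.284). Of the proteases that shed Axl and Mertk, Adam17 rose by a log2 difference of 0.38, from 50.7 ± 0.641 to 66.2 ± 0.465 TPM, and Adam10 fell by 0.24 on the log2 scale, from 56.0 ± 0.0582 to 47.4 ± 0.392 TPM (adjusted p = 0.00208 in limma). The other rise, of the protease gene Furin (log2 difference 0.17), was lost without NT02, PolyIC01 or PolyIC02, leaving 1. Adam10 and Furin were also named after their values were seen.

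Genes through which TAM receptors act on interferon signalling had 4 rises and 1 fall among 6 tested, with a median of 0.60. Socs3, a feedback inhibitor of cytokine receptors, rose from 1.86 ± 0.196 to 19.5 ± 0.850 TPM (log2 difference 2.84, adjusted p = 6.55e-06 in limma). Its relative Socs1 rose by a log2 difference of 0.91 and was named after its values were seen. Both are also known as direct interferon targets. The fall was that of Twist2, from 10.2 ± 0.230 to 8.66 ± 0.217 TPM, and it was lost in limma without NT02, PolyIC01 or PolyIC02 (adjusted p = 0.0896, 0.151 and 0.0875).

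Of 17 other phosphatidylserine receptors and bridging proteins 8 were tested, with 1 rise, 4 falls and a median of -0.07. The rise was in Anxa5, annexin A5, which binds phosphatidylserine, from 352 ± 0.592 to 576 ± 4.30 TPM (log2 difference 0.71, adjusted p = 8.22e-06 in limma). Anxa1, annexin A1, fell from 155 ± 1.10 to 106 ± 1.67 TPM (-0.54, adjusted p = 3.74e-05). The number of falls was 2 without NT02 or PolyIC01. Of the integrins that bind MFG-E8, the alpha chain gene Itgav was at 18.8 ± 0.525 and 18.9 ± 0.751 TPM, its partner Itgb3 was under 0.03 TPM in each library, and Itgb5 was at 1.49 ± 0.137 untreated and 0.890 ± 0.147 TPM treated. These integrin genes were named after their values were seen, and the fall of Itgb5 (adjusted p = 0.0210) was lost without NT02 or PolyIC01 (adjusted p = 0.0700 and 0.122).

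Among scavenger and dead-cell receptors 4 of 7 tested genes rose and 1 fell, with a median of 0.23. The rises include Clec9a, also in the cDC1 marker list, from 198 ± 16.4 to 231 ± 8.23 TPM (log2 difference 0.23, adjusted p = 0.0262 in limma). Its call was lost in limma with no filter on low values, without trend or robust moderation, or under quantile normalization (adjusted p = 0.0630, 0.0667 and 0.0573). The call was also lost without PolyIC01 or PolyIC02, where the log2 difference was 0.19 and 0.26. Clec9a was named after its values were seen. Clec12a, an inhibitory receptor for uric acid crystals, rose from 83.7 ± 0.197 to 137 ± 2.27 TPM (log2 difference 0.70). Scarb1, the lipoprotein receptor of the same family as Cd36, fell from 125 ± 2.29 to 77.2 ± 2.96 TPM (-0.69, adjusted p = 4.57e-05 in limma). Scarb2, the lysosomal member of that family, rose from 56.0 ± 0.214 to 81.7 ± 1.2 TPM (0.54, adjusted p = 6.59e-05 in limma) and was named after its values were seen, so the CD36 family did not move in 1 direction.

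The don't-eat-me list, proteins that restrain uptake of a cell or the cell doing it, had 4 rises and 1 fall among 6 tested genes, with a median of 0.58. Sirpa, the receptor of CD47, was at 0 and 0.365 TPM untreated and 1.79 and 2.14 TPM treated, so its level stayed low. Limma gave a log2 difference of 1.34 (adjusted p = 0.00121). Both untreated values were under the 0.5 TPM limit, so Sirpa was tested only because of its treated values. Its log2 difference depends on the added constant and was 3.25 with 0.1 TPM added. Cd47 itself rose from 67.2 ± 0.113 to 152 ± 0.497 TPM (log2 difference 1.17, adjusted p = 3.08e-06 in limma) and was named after its values were seen. Cd24a, which encodes the small surface protein CD24, fell from 382 ± 1.72 to 142 ± 2.63 TPM (log2 difference -1.42). The number of falls was 2 without NT02.

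Engulfment signalling had 4 rises and 3 falls among 11 tested genes, with a median of 0.09. The guanine nucleotide exchange factor gene Vav1 rose from 90.7 ± 1.43 to 160 ± 1.64 TPM (log2 difference 0.82), and Elmo2, a partner of DOCK proteins, fell from 63.6 ± 0.180 to 44.5 ± 0.0576 TPM (-0.51). Partners and relatives of LRP1 had 4 rises and 4 falls among 12 tested genes, with a median of -0.04. Sorl1, a sorting receptor of the same family, rose from 2.98 ± 0.00892 to 7.45 ± 0.143 TPM (1.09), and Lrpap1, the chaperone of LRP1, fell from 25.3 ± 0.289 to 20.7 ± 0.697 TPM (-0.28, adjusted p = 0.00497 in limma).

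Lipid handling after uptake had 5 rises and 3 falls among 10 tested genes, with a median of 0.12. Among the rises, the nuclear receptor gene Nr1h3 was at 0.393 and 0.374 TPM untreated and 0.716 and 0.799 TPM treated. It was therefore tested only because of its treated values, and was named after its values were seen. Abcg1, a cholesterol exporter, rose from 30.3 ± 0.236 to 56.3 ± 1.28 TPM (log2 difference 0.87), and the nuclear receptor gene Rxra fell from 12.2 ± 0.246 to 5.99 ± 0.0424 TPM (-0.92), a call lost with curated transcripts alone (adjusted p = 0.276 in limma). The rises were 3 without NT01 and 2 without NT02, PolyIC01 or PolyIC02. Phosphatidylserine exposure had 3 rises and 3 falls among 8 tested genes, with a median of 0.05. The falls in this list were fewer whichever library was left out. Panx1, the pannexin channel, rose from 2.29 ± 0.141 to 5.54 ± 0.173 TPM (0.99), and Ano6, a lipid scramblase gene, fell from 26.7 ± 0.469 to 17.6 ± 0.140 TPM (-0.57, adjusted p = 0.000225 in limma).

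**Figure D5:**
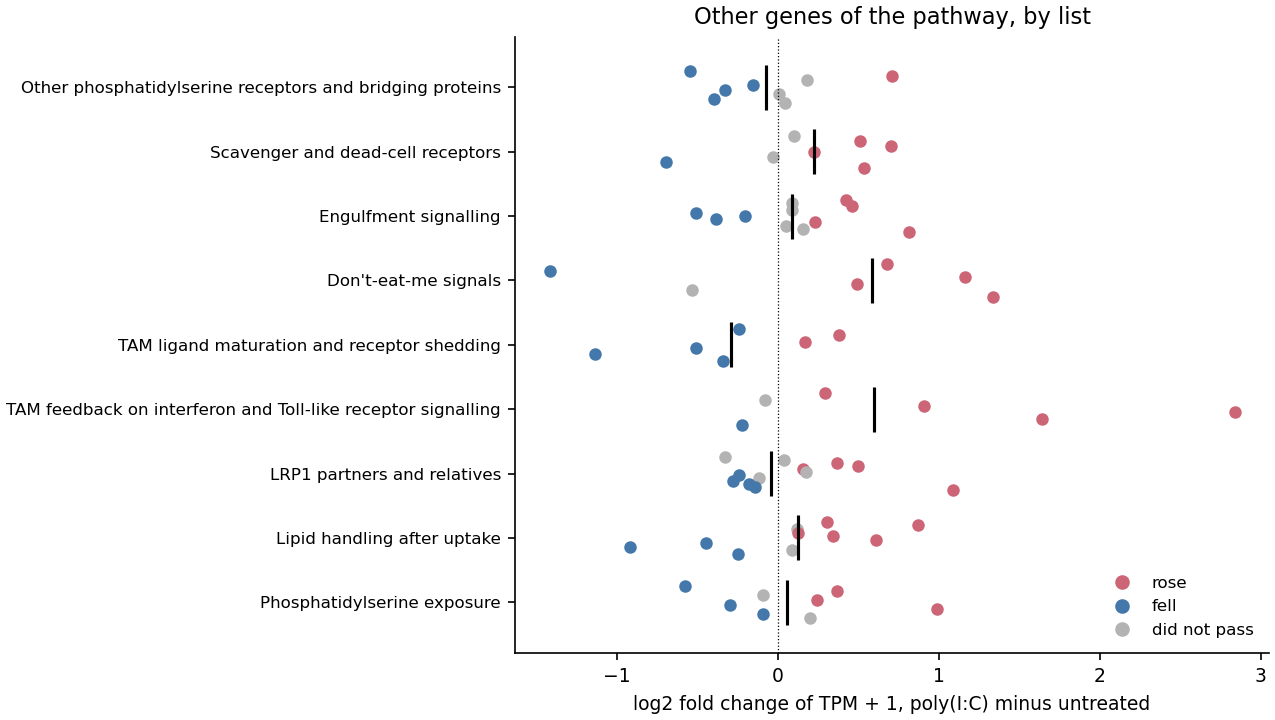
Log2 fold change of TPM + 1, poly(I:C) minus untreated, for the tested genes of the 9 pathway lists (red rose, blue fell, grey did not pass, black bar the median). Medians run from -0.29 for TAM ligand maturation and receptor shedding to 0.60 for TAM feedback, and every list holds both red and blue points.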

How the data were processed

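Per the labels' protocols, libraries were stranded and made from polyadenylated RNA of the MuTuDC1940 line. The submitters' processing notes name kallisto 0.42.4, bcl2fastq 2.20.0.422 and GRCm38, with no role or order. The authors deposited 1 table of values per RefSeq transcript. It is named as FPKM, but each column used sums to 1000000, as TPM does, so the authors' values are treated here as TPM, of unknown depth. Above the 6 value columns the header has 5 names, and the cell after the first is empty, so 2 columns of unsettled group were not used, and replicate numbers are not settled.

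Of 107384 transcripts, 86722 (80.8%) had a symbol in RefSeq's GRCm38.p6 genes once accession versions were dropped, and TPM were summed per symbol. Genes averaging 0.5 TPM or more were compared with limma 3.58.1 (trend and robust moderation, R 4.3.3) on log2(TPM + 1), with adjustment over all tested genes. The same fit was also run on simulated data built from the means and spread of the real fit, with the outcome not given here. Tables were made with Python 3.11.15 and pandas 2.3.3 (numpy 2.4.6), and plots with matplotlib 3.10.9. The labels state no test. Members, gene lists and markers were chosen with earlier results of these data known. Named genes are all members, the passing gene of each list with the largest rise and the largest fall (mean of at least 1 TPM), and the 3 nearest in pattern to each changed member. Others are said to be chosen after their values were seen, apart from markers. Alternatives were the added constant, the expression limit, moderation, quantile or median scaling, curated transcripts, and leaving out each library.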

Additional observations from a re-analysis of the deposited data

How the results depend on the processing

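Across 12 alternative settings the rises of Axl, Timd4 and Mfge8 and the fall of Cd36 kept their direction and passed in limma. Tyro3 fell in each of the 10 settings that tested it. It was under the limit with a mean of at least 2 TPM or with curated transcripts alone, so 1 member fell in each of these settings. Lrp1 kept its direction and passed only without trend or robust moderation (0.19, adjusted p = 0.0263). Leaving out 1 library at a time gave 3 member rises and 2 falls each time, with log2 differences of 2.48 to 2.53 for Axl, 1.52 to 1.59 for Timd4, 0.46 to 0.52 for Mfge8, -0.34 to -0.30 for Cd36, -0.63 to -0.47 for Tyro3 and 0.16 to 0.22 for Lrp1. The lone library of a group is then assumed to vary like the other group. No setting moved the median of all genes by over 0.1 on the log2 scale. No paired analysis was possible because the columns used carry no settled replicate numbers.

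Small lists moved more. Rises in the list of other phosphatidylserine receptors were 2 with no filter on low values. Rises among LRP1 partners were 2 and among phosphatidylserine exposure genes 1 with curated transcripts alone. Rises in lipid handling were 3 with no filter or with a limit of 2 TPM and 2 with curated transcripts alone. Falls in engulfment signalling and in phosphatidylserine exposure were each 2 with no filter, with median scaling, or without trend or robust moderation. Leaving out 1 library gave 1 to 2 rises in TAM ligand maturation and shedding, 2 to 3 rises in lipid handling, 2 to 3 falls in other phosphatidylserine receptors, 1 to 2 falls in the don't-eat-me list and 0 to 1 falls in TAM feedback. The 0 arises in limma without NT02, PolyIC01 or PolyIC02, where 0, 0 and 1 genes of that list fell at an unadjusted p under 0.05; no other tool was run. The causes were not tested. Depth is unknown, so for Gas6, Mertk and Pros1 no limit can be set on what was missed.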

Other observations

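Single transcripts of 2 members did not hold a steady share of the TPM of their gene. While Cd36 fell, a predicted Cd36 transcript was at 0.000373 and 0.0000392 TPM untreated and 1.37 and 1.44 TPM treated, and another at 0.00318 and 0.430 TPM untreated and 2.08 and 1.96 TPM treated. Together they held under 5% of the gene in each library. For Axl, 1 predicted transcript held 2.52% and 5.21% of the gene's TPM untreated and 9.70% and 12.3% treated, and another held 4.82% in PolyIC01 but 1.28% in PolyIC02. In TPM both of these Axl transcripts were higher in each treated library than in either untreated one, as the gene was. These values were chosen after they were seen and are estimates of the authors' quantification.

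Lrp8, a lipoprotein receptor related to LRP1, stayed under the expression limit and was not tested, at 0.0562 and 0.0434 TPM untreated and 0.377 and 0.351 TPM treated. Stab1, a scavenger receptor for phosphatidylserine, was at 0.0154 and 0.0201 TPM untreated and 0.543 and 0.401 TPM treated. Both were chosen after their values were seen.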
